A study of Homo sapiens with 6 samples.

Results

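The 3 libraries described here are the IR control group of a series of 6, and they are described on their own, with no contrast to the other group. They come from SH-SY5Y, an established neuroblastoma line, so all values are those of 1 tumour-derived line in culture. Per the labels' protocols, the cells were grown in medium with 10% fetal bovine serum, moved to 2% serum with all-trans retinoic acid to differentiate them, and then made insulin resistant (IR) by 24 h with insulin at 100 nM plus D-glucose at 30 mM. The other 3 libraries of the series had the same treatment plus Oligonol at 500 ng/mL and are not used here. The labels give neither the dose of retinoic acid nor the number of days, and cells without retinoic acid or without the insulin and glucose load were not analysed here, so no level below can be tied to either treatment.

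SH-SY5Y cells descend from the sympathoadrenal lineage of the neural crest, which makes noradrenaline under a core circuit of transcription factors that includes HAND2 and GATA3. Retinoic acid enters such cells, binds the receptors RARA, RARB and RARG, and switches on genes for its own carriage and breakdown. Insulin acts through the receptor INSR, whose substrates IRS1 and IRS2 recruit PI3-kinase and AKT. In neurons glucose enters mostly through SLC2A3 and, more widely, SLC2A1.

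Levels were described within named long genes, those with a symbol and an end minus start of at least 1000 bases. This rule kept 27750 of the 61860 genes in the deposited table and left out the very abundant small RNAs. A level is the deposited estimated count as parts per 1000000 (ppm) of the named long gene total of its library. The low values behaved as whole reads divided by transcript length in about 68.4 to 70.3% of the genes checked, so levels were treated as per length. How the authors made them is not stated in the sources used here, and comparisons between genes rest on this reading. SDs are on this scale too and include a shift common to most genes, described at the end. A gene was taken as present at 1 ppm or more in all 3 libraries, as trace when it was above 0 in any library without meeting that, and otherwise as listed at 0. At 1 ppm a transcript of 1000 nt rested on about 6.48, 7.26 and 9.37 reads in libraries 1, 2 and 3.

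By that rule 13776 named long genes (49.6%) were present, 8854 were trace and 5120 were listed at 0. Protein-coding genes were present in 12199 of 18934 cases (64.4%), the share beside which each list count below should be read. The span rule kept 6 genes of the mitochondrial genome, and its shorter genes are outside the total. The scale was dominated by mitochondrial RNA: MT-RNR2, the large mitochondrial ribosomal RNA, held 31.8, 34.5 and 42.6% of the total. The 10 most abundant genes together held 39.6, 41.0 and 47.7%. Next in order were MIR663AHG, a non-coding host gene (24700 ± 11550 ppm, SD, n = 3, as for all SDs below), the cytochrome oxidase gene MT-CO1 and the histone H4 copies H4C14 and H4C15, whose values nearly coincide and cannot be told apart with confidence. GAPDH (4752 ± 632 ppm) and the ribosomal protein genes RPL13, RPS27, RPS2, RPS19, RPLP2, RPL41, RPS15 and RPL10 (3181 to 3909 ppm on average) were also among the 15 most abundant genes.

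Olfactory receptor genes, which cells outside the nose leave almost silent, gave the background. Of 238 such genes 5 were present (2.10%) and 132 were listed at 0. Their 95th percentile of mean level was 0.602 ppm, so trace levels below that value are not separated here from a silent gene. That value comes from the mean of the 3 libraries, and the background was uneven among them. Olfactory receptor genes summed to 54.9, 30.9 and 20.5 ppm in libraries 1, 2 and 3. Low values seen mainly in library 1 should be read beside its higher background. Of 63 markers of other cell types, 16 were present and 15 were listed at 0. The plot of level against rank places the genes discussed below on this scale.

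**Figure D1:**
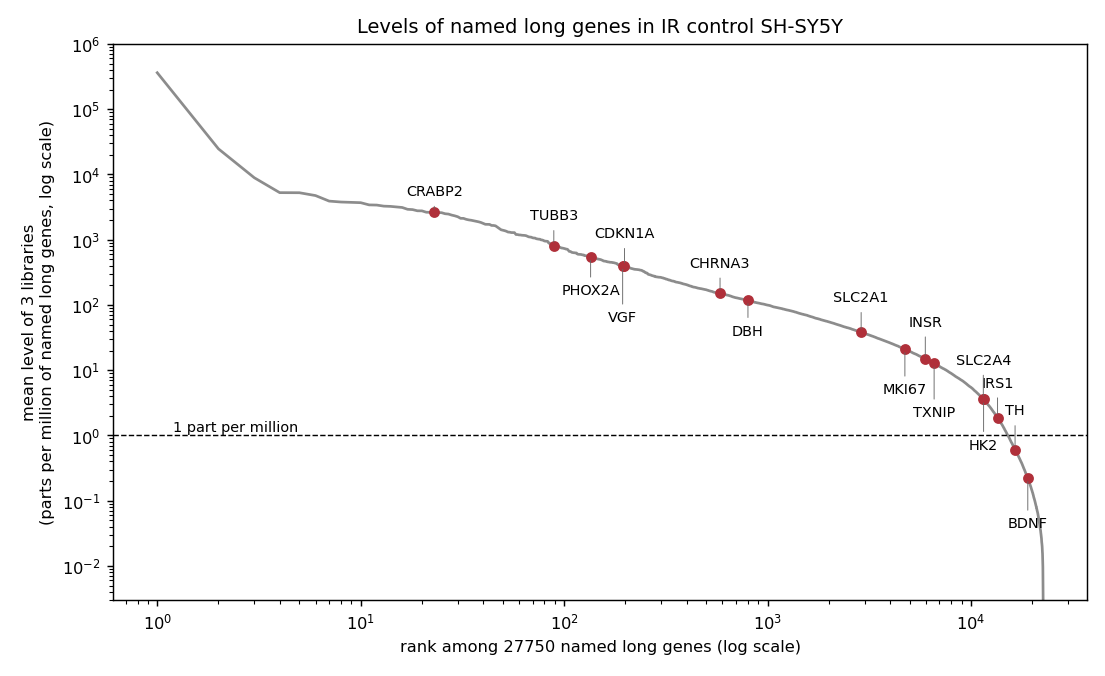
Mean level of each named long gene above 0 against its rank among 27750, both on log axes, with selected genes marked. The retinoic acid binding protein gene CRABP2 sits at rank 23, TUBB3 at rank 89 and the insulin receptor gene INSR at rank 5961, while TH and BDNF lie under the dashed line at 1 ppm.

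Noradrenergic transcription factor genes were mostly present in these cells, whereas the synthesis enzyme gene TH was trace, as described below. Of 20 noradrenergic neuroblast transcription factor genes, 19 were present (95%), against 64.4% of protein-coding and 49.6% of all named long genes. None was listed at 0, and the median level was 30.4 ppm, against 5.26 over protein-coding and 1.65 over all named long genes. PHOX2A (chromosome 11, 72239077 to 72245664, GRCh38.p13 as for all coordinates from the deposited table) led the list, at 552, 577 and 509 ppm in libraries 1, 2 and 3 and at rank 135. PHOX2A is a homeodomain factor that acts on genes of noradrenaline synthesis, and it was lowest in library 3 on this scale.

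GATA2 (498, 420.4 and 412 ppm) and HAND2 (264, 254 and 281 ppm), both members of the core circuit, followed. GATA3 was at 54.8, 27.5 and 22.4 ppm, highest in library 1, and stood below GATA2 in every library. The LIM factor ISL1 was at 41.3, 37.6 and 30.01 ppm and the T-box factors TBX2 and TBX3 at 93.3 ± 5.27 and 81 ± 10.3 ppm. MYCN, the oncogene amplified in many other neuroblastomas, reached only 1.95, 1.89 and 1.13 ppm (rank 13861), below MYC at 6.65 ± 1.21 ppm in every library. The zinc finger gene INSM1 was the exception of the list, at 0 in libraries 1 and 3 and 0.0444 ppm in library 2.

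General neuronal genes were present in 25 of 27 cases, with a median level of 54.1 ppm, against 5.26 over protein-coding genes. TUBB3, the neuronal beta-tubulin, was at 808, 863 and 762 ppm, with UCHL1 (328 ± 26.1 ppm) and the stathmin STMN3 (256 ± 19.4 ppm) next. Of other cytoskeletal genes MAP2, of dendrites, was at 32.1, 25.6 and 25.4 ppm, MAPT, encoding tau (chromosome 17, 45894527 to 46028334), at 26.1, 16.9 and 17.1 ppm, and DCX, of young migrating neurons, at 16.4 ± 2.22 ppm. Of the neurofilament genes NEFM was at 153 ± 60.4, NEFL at 62.6 ± 19.5 and NEFH at 8.27 ± 2.22 ppm, in that order in every library. RBFOX3, which encodes the NeuN antigen of mature neurons, was at 1.59, 1.096 and 0.709 ppm, so it missed the level of presence in library 3, and RBFOX1 was trace in all 3.

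The secretory machinery was led by the cargo of dense-core granules. Of 35 genes of synaptic vesicles and granules 32 were present, and the most abundant were VGF, a secreted neuropeptide precursor (499, 395 and 305 ppm), CHGA, encoding chromogranin A (279, 300.4 and 264 ppm), and SYP, encoding the vesicle protein synaptophysin (116, 123 and 104 ppm). CHGA was above SYP in every library, and VGF above CHGA. The vesicle calcium sensor SYT1 was at 12.1, 17.1 and 7.01 ppm, while its relatives SYT4, SYT5 and SYT11 were at 51.98 ± 24.9, 50.5 ± 16.7 and 72.3 ± 6.403 ppm. The fusion protein SNAP25 was at 44.6, 41.2 and 24.2 ppm. The prohormone convertase genes PCSK1 and PCSK2, which cut neuropeptide precursors, were trace, PCSK1 with a value above 0 in library 1 alone and PCSK2 at 0.1601, 0.382 and 0.113 ppm.

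Genes that answer to retinoic acid held some of the highest ranks. Of 27 genes on that list 22 were present and 10 ranked among the 1000 most abundant named long genes. CRABP2, which carries retinoic acid to its nuclear receptors (chromosome 1, 156699606 to 156705816), was at 2421, 2916 and 2536 ppm, rank 23. By mean level CRABP2 was below the reference genes ACTB (rank 19) and RPLP0 (rank 21). It was above others such as EEF2 (1779 ± 135 ppm) and PPIA (996 ± 283 ppm). CRABP1, its paralogue, was at 28.6 ± 1.78 ppm, so CRABP2 exceeded it 92.2 ± 14.3 times. RET, the receptor kinase for GDNF-family ligands, was at 1294, 904 and 775 ppm (rank 78).

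Both main enzymes that degrade retinoic acid were abundant. CYP26A1 was at 468, 391 and 447 ppm. CYP26B1 was at 923, 455 and 396 ppm, above CYP26A1 in libraries 1 and 2 and below it in library 3, so their order did not hold in all 3. DHRS3, which turns retinal back to retinol, was at 531, 586 and 519 ppm, and STRA6, the membrane receptor for retinol carriage, at 224, 199 and 163 ppm. Enzymes that make retinoic acid were low: ALDH1A2 was at 7.11, 2.06 and 1.79 ppm, ALDH1A3 at 2.11 ± 0.348 ppm and ALDH1A1 at 0 in libraries 2 and 3.

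Among the receptors themselves RARA (121, 96.6 and 94.7 ppm) stood above RARG (43.2, 45.7 and 42.2 ppm), and RARG above RARB (18.6, 20.4 and 14.3 ppm), without overlap at either step. HOXB1, an early retinoic acid target of the embryonic hindbrain, was listed at 0, which at 3 reads allows up to 0.209 ppm. HOXD4 was at 9.16 ± 2.75 ppm. A direct repeat of 2 half-sites spaced by 5 bases (a DR5), the element that retinoic acid receptors are known to bind, was sought in RefSeq promoters (GRCh38.p14, 250 bases before to 50 after a gene start). Each half-site could read AGGTCA, with G allowed as its first base and T as the third, on both strands, and matches could overlap. The repeat was found in 31 of 35116 windows (0.0883%), and in 2 of the 41 windows that matched 22 of the 27 genes. The 250 bases before the start are printed for these 2 genes, 5′ to 3′, with the repeat in capitals, because they show where the repeat lies. The CYP26A1 stretch is chr10:93073643-93073892 on the plus strand, with the repeat, read on the minus strand, at bases 161 to 177. The RARB stretch is chr3:25428013-25428262 on the plus strand, with the repeat at bases 198 to 214.
CYP26A1: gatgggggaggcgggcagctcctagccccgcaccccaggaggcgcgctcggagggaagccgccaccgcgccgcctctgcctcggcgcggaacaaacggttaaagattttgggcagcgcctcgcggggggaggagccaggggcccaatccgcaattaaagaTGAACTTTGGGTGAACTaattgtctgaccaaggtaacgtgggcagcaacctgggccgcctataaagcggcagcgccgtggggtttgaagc
RARB: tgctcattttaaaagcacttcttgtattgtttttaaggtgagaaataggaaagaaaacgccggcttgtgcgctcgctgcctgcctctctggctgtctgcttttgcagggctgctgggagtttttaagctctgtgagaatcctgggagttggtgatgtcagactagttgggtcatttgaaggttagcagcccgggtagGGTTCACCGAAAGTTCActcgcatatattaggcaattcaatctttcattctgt
The match describes these letters only. CYP26A1 was at 435 ± 39.9 ppm and RARB at 17.7 ± 3.13 ppm, and CRABP2, the most abundant gene of the list, had none in its window. Other spacings and sites outside these windows were not searched, and no level was tested against the repeat.

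Of 18 genes of neural progenitors, 9 were present (50%, against 64.4% of protein-coding and 49.6% of all named long genes). The inhibitors of differentiation ID3 (186, 201 and 194 ppm), ID1 (44.6, 71.7 and 79.5 ppm) and ID2 (43.7 ± 5.103 ppm) and the intermediate filament gene NES (103, 85.01 and 100.2 ppm) led, while the stem cell factor SOX2 was at 0.218, 0.195 and 0.113 ppm and SOX1 and SOX3 were listed at 0, which allows up to 0.145 and 0.197 ppm. ID1 ran the other way to most genes, lowest in library 1 and highest in library 3.

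Of 20 genes of the mesenchymal neuroblastoma state, 16 were present (80%, against 64.4% of protein-coding named long genes), led by VIM (165, 140.1 and 205 ppm), TWIST1 (165, 129 and 127 ppm) and NOTCH2 (109, 81.02 and 101 ppm). The defining regulator PRRX1 was at 0.0495 ± 0.04303 ppm and YAP1 at 0.457 ± 0.1603 ppm, both trace, with PRRX1 at 0 in library 3. Fibrillar collagen genes were uneven, COL3A1 being at 50 ± 5.58 ppm and COL1A2 at 0.08201 ± 0.0852 ppm.

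Markers of other cell types were mostly low. In the list for liver, pancreas, muscle and skin, 1 of 21 measured genes was present, KRT10 at 1.72 ± 0.386 ppm, and GCG, FGA, KRT1, ALB, AMY2A and TNNT3 were listed at 0. Of the microglia and leukocyte markers CX3CR1, MS4A1, ITGAM and AIF1 were listed at 0, and of 9 only CD68 (1.805, 6.45 and 7.01 ppm) and CSF1R (2.05 ± 0.737 ppm) were present. The summed level of those 9 was 5.15, 7.86 and 9.05 ppm in libraries 1, 2 and 3.

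The highest of these markers were CNP (111 ± 10.4 ppm), PDGFRB (57.03 ± 14.1 ppm) and KRT18 (56.5 ± 7.08 ppm). The oligodendrocyte markers MAG and OLIG1, the endothelial marker TEK and the basal keratins KRT5 and KRT14 were listed at 0. Of the astrocyte markers SLC1A2 (5.24 ± 1.72 ppm), ALDH1L1 (1.79 ± 0.282 ppm) and GFAP, the filament gene (2.605, 4.64 and 5.08 ppm), were present, with AQP4 at 0 in libraries 2 and 3. ERBB3 (4.29 ± 3.66 ppm), PDGFRA (8.67 ± 3.39 ppm), DCN (3.56 ± 0.982 ppm), KRT19 (9.23 ± 1.52 ppm) and KRT8 (3.14 ± 0.376 ppm) were also present. SOX10, of Schwann cell precursors, was at 6.71, 0.421 and 0.801 ppm, so library 1 carried most of it. The plot of lists shows these shares side by side.

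**Figure D2:**
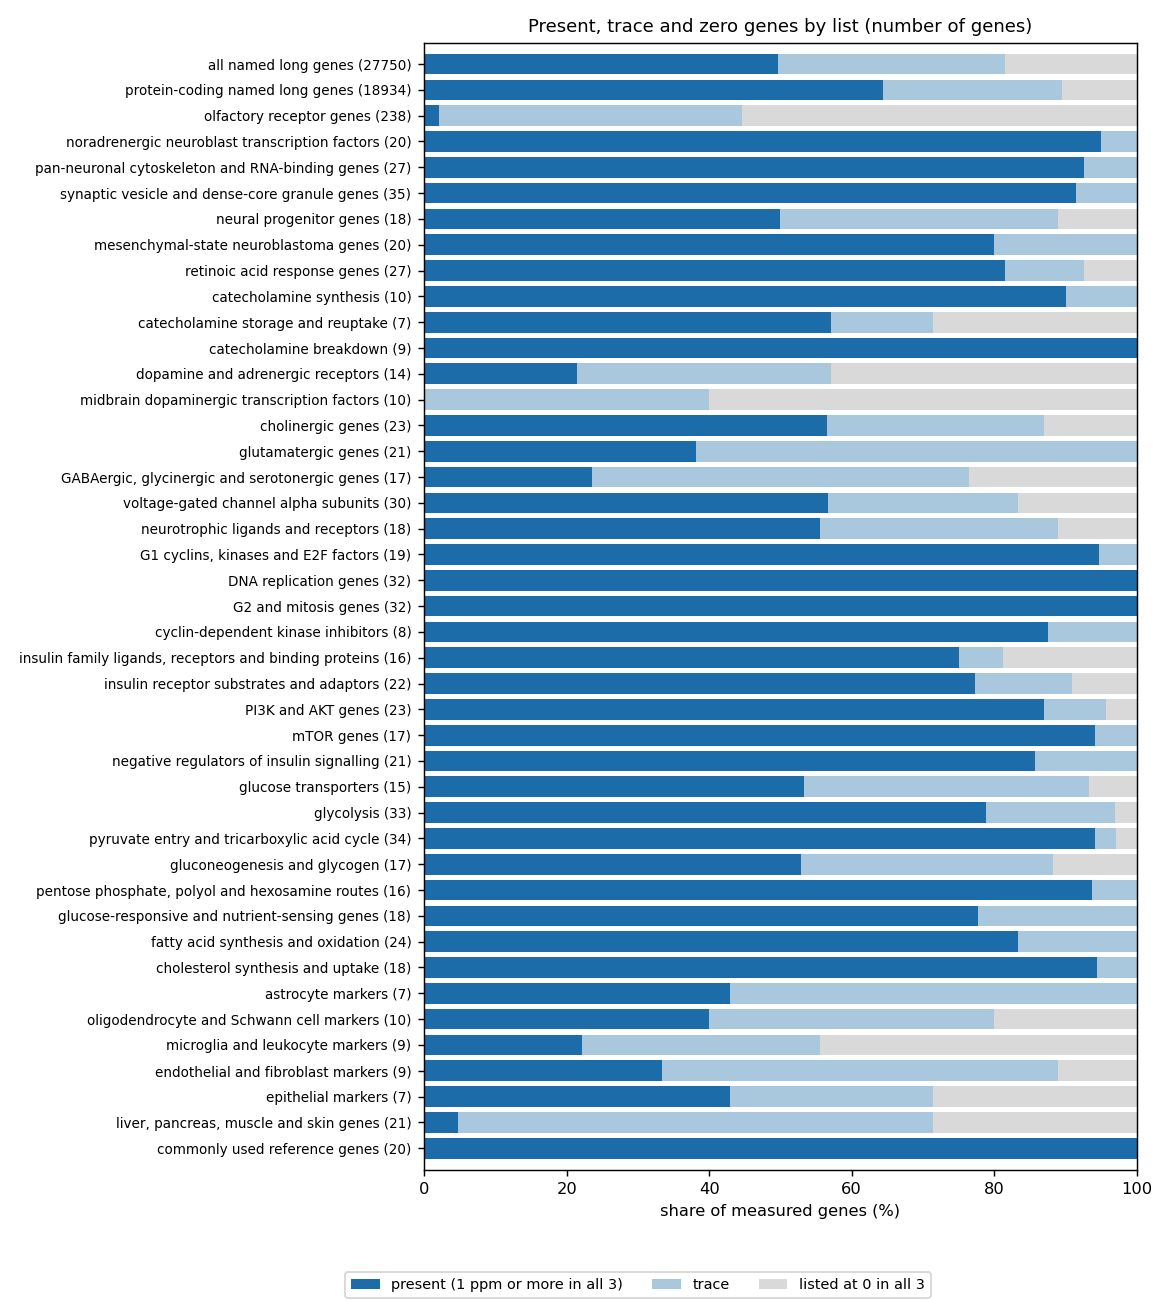
Share of measured genes in each list that were present (1 ppm or more in all 3 libraries), trace or listed at 0, with the number of measured genes in parentheses. All genes of catecholamine breakdown, DNA replication and mitosis and all reference genes were present, whereas no midbrain dopaminergic factor and 2.10% of olfactory receptor genes were.

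Of the 10 catecholamine synthesis genes all but the first enzyme were present, and that enzyme was near background. TH, tyrosine hydroxylase, which makes L-DOPA and limits the rate of synthesis (chromosome 11, 2163929 to 2171815), was at 0.655, 0.794 and 0.375 ppm (rank 16466), about 4.17, 5.66 and 3.45 reads in libraries 1, 2 and 3. That is close to the 95th percentile of olfactory receptors. The later enzymes were present: DDC, which makes dopamine, at 26.96, 26.1 and 22.4 ppm, and DBH, which turns dopamine into noradrenaline (chromosome 9, 133636363 to 133659329), at 162, 124 and 69.5 ppm. DBH was far above TH in every library, and PNMT, which makes adrenaline, was at 10.2, 12.03 and 5.06 ppm. All 4 enzymes were lowest in library 3 on the ppm scale, as were 68.6% of present genes, and the order for TH rests on few reads.

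The genes for the pterin cofactor of TH were all present. GCH1, the first enzyme of that route, was at 19.4, 13.6 and 8.83 ppm, PTS at 10.1 ± 2.27 ppm and SPR at 35.6 ± 3.56 ppm, while QDPR and PCBD1, which recycle the cofactor, were at 8.43 ± 3.12 and 149 ± 14.2 ppm. Thus 9 of 10 synthesis genes were present, and TH was the 1 that was not.

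Of 7 storage and reuptake genes 4 were present (57.1%, against 64.4% of protein-coding named long genes). SLC6A2, the noradrenaline transporter, was at 56.7, 42.2 and 41.1 ppm, whereas SLC6A3, the dopamine transporter, was listed at 0 (at most 0.492 ppm at 3 reads), as was the monoamine transporter SLC22A3. The vesicular transporter SLC18A1, typical of chromaffin cells, was at 8.22, 8.99 and 9.23 ppm. SLC18A2, its neuronal counterpart, was at 0.0922 ppm in library 1 and at 0 in libraries 2 and 3. CYB561, which supplies reducing power to DBH inside granules, was the most abundant of the list (323, 291 and 273 ppm), and SLC29A4, another monoamine transporter, reached 87.1 ± 13.8 ppm.

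All 9 breakdown genes were present. The monoamine oxidases MAOA (3.62, 5.33 and 2.71 ppm) and MAOB (4.11, 4.503 and 2.08 ppm), which deaminate catecholamines, were low and their ranges overlapped each other. The aldehyde reductases AKR1B1 (202, 199 and 162 ppm) and AKR1A1 (114 ± 12.8 ppm) exceeded the aldehyde dehydrogenase ALDH2 (23.8 ± 2.26 ppm). AKR1B1 is also the first enzyme of the polyol route from glucose.

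Of 14 dopamine and adrenergic receptor genes 3 were present (21.4%, against 64.4% of protein-coding named long genes). ADRA2C, which damps noradrenaline release, was at 44.6, 51.9 and 44.8 ppm, DRD2 at 20.8, 15.8 and 11.5 ppm and DRD4 at 1.35, 1.695 and 1.02 ppm. DRD1, DRD3, DRD5, ADRA1B, ADRA1D and ADRA2B were listed at 0. Of the 10 transcription factors and markers of midbrain dopamine neurons none was present: FOXA1, FOXA2, LMX1A, EN1, EN2 and OTX2 were listed at 0. CORIN, at 4.24, 0.936 and 2.898 ppm, missed presence through library 2.

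**Figure D3:**
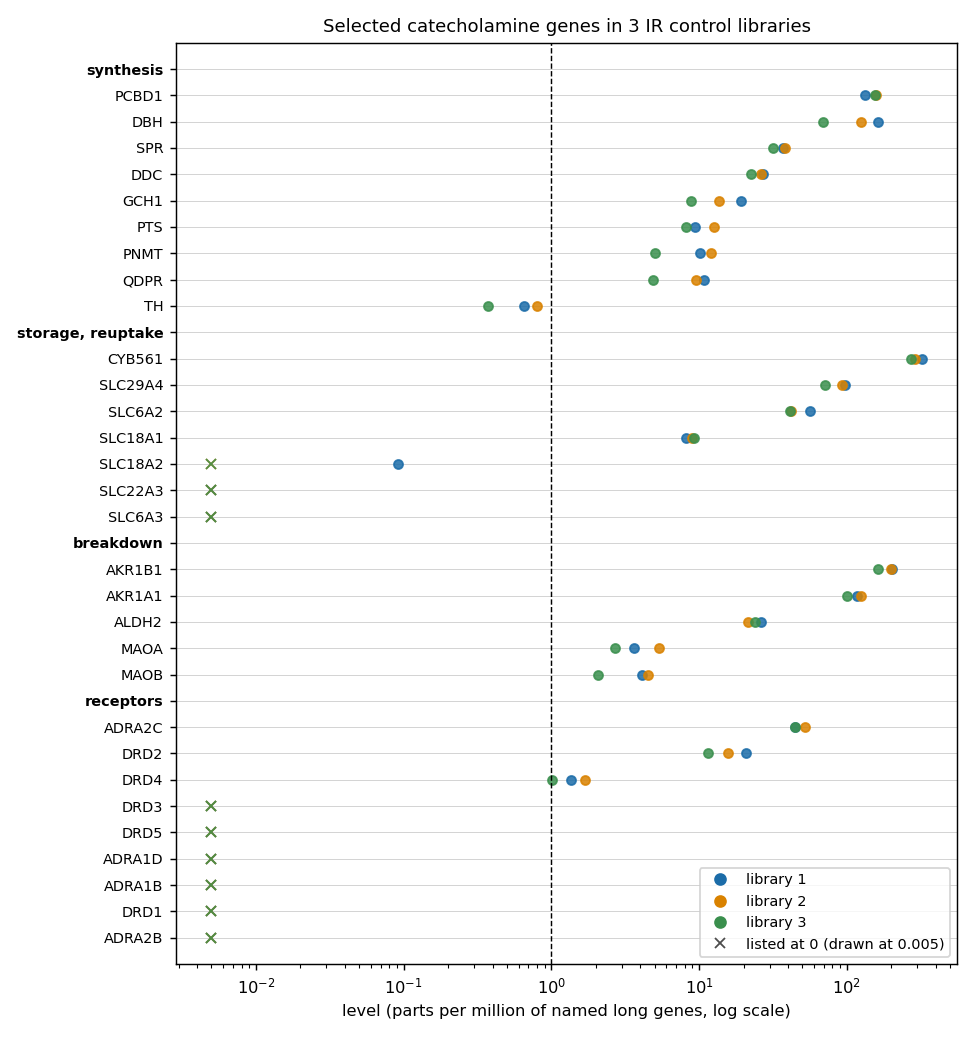
Level of each catecholamine gene named in the text in each of 3 libraries on a log axis, a point per library, with crosses for values of 0 drawn at the left edge and overlapping where several libraries were at 0. TH lies left of the dashed line at 1 ppm in all 3 libraries while DBH, DDC and SLC6A2 lie right of it.

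Cholinergic genes were present in 13 of 23 cases (56.5%), a share between those of all named long genes (49.6%) and of protein-coding ones (64.4%). The nicotinic subunits of autonomic ganglia, CHRNA3 (162, 139 and 154 ppm) and CHRNB4 (39.98, 33.01 and 27.1 ppm), and CHRNB2 (63.97 ± 9.55 ppm) were well expressed. SLC18A3, the vesicular acetylcholine transporter (66.8, 57.97 and 43.8 ppm), lies inside the first intron of CHAT, the synthesising enzyme (2.27, 6.59 and 2.49 ppm), on the same strand, so their reads may not be fully separable. SLC18A3 was above CHAT in every library, and CHAT was highest in library 2. SLC5A7, the choline transporter, CHRNA4 and CHRNB3 were listed at 0, with SLC5A7 at most at 0.113 ppm.

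Markers of other transmitters were scarce. Of 21 glutamatergic genes 8 were present, led by the kainate receptor subunit GRIK5 (33.5 ± 13.1 ppm), with GLUD1, a general enzyme of glutamate metabolism, at 16.9 ± 3.76 ppm. The vesicular glutamate transporters SLC17A6, SLC17A7 and SLC17A8 were all trace, the highest being SLC17A7 at 0.568, 0.781 and 0.477 ppm. GAD2, SLC6A5, GABRB1 and HTR1A were listed at 0, as GABA, glycine and serotonin markers, and GAD1 was at 0.196 ± 0.171 ppm. ABAT, which degrades GABA (25.1, 19.5 and 20.6 ppm), and the glycine transporter gene SLC6A9 (3.87 ± 0.663 ppm) were present.

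Among voltage-gated channels the potassium channel gene KCNH2, encoding the ERG channel, was high (280.4, 288 and 244 ppm, rank 283). It was over 10 times as abundant in each library as KCNC4 (18.5 ± 7.93 ppm). Of 30 alpha subunit genes 17 were present (56.7%, against 64.4% of protein-coding named long genes). The sodium channel genes SCN8A (10.8, 29.7 and 14.1 ppm), SCN9A (4.33 ± 1.92 ppm), SCN2A and SCN3A were present, and the N-type calcium channel gene CACNA1B (19.9, 13.4 and 11 ppm) led its family. SCN4A, SCN10A, KCNA1, KCND2 and CACNA1S were listed at 0.

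Of 18 neurotrophic genes 10 were present, receptors among them (55.6%, against 64.4% of protein-coding named long genes). ALK, a receptor kinase and neuroblastoma oncogene, was at 129.9, 104 and 90.1 ppm and NTRK2, the receptor for BDNF, at 64.2, 41.9 and 41.6 ppm, both highest in library 1. The ligand BDNF was trace at 0.175, 0.328 and 0.164 ppm, NTF3 and the receptor gene GFRA4 were listed at 0, and GDNF was at 0.159 ± 0.0958 ppm. Among GDNF-family ligands NRTN (9.58 ± 1.06 ppm) and PSPN (6.02 ± 1.497 ppm) were present.

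Proliferation genes were present throughout. All 32 DNA replication genes and all 32 genes of G2 and mitosis were present, against 64.4% of protein-coding named long genes. The replicative helicase genes MCM7 (324, 330.4 and 314 ppm), MCM5 (218, 221 and 193 ppm) and MCM2 (112, 132 and 124 ppm) led the first list, and POLA1 (5.16 ± 1.51 ppm), of the primase complex, was its lowest. UBE2C (157, 169 and 208 ppm), of mitotic exit, CDC20 (73.2, 67.1 and 69.7 ppm) and FOXM1 (82.97, 67.3 and 59.5 ppm) led the second. MKI67, encoding the proliferation antigen Ki-67 (chromosome 10, 128096659 to 128126423), was at 23.9, 19.6 and 19.5 ppm, rank 4732. Bulk RNA cannot tell a minority of cycling cells with much of these RNAs from all cells with a little, and the same holds for every level here.

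Regulators of G1 were present in 18 of 19 cases. CCND1, encoding cyclin D1 (chromosome 11, 69641156 to 69654474), was at 721, 549 and 482 ppm, rank 124, highest in library 1. CCND3 was at 40.5 ± 4.47 ppm and CCND2 at 0.0205 ± 0.02196 ppm, so a single D cyclin made up nearly all of the family. CDK4 (349.9, 342 and 291 ppm) exceeded CDK6 (31.6, 20.6 and 19.9 ppm), and E2F4 (107 ± 8.46 ppm) and E2F1 (86.6 ± 6.52 ppm) led the E2F factors.

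Beside this programme the inhibitor CDKN1A, encoding p21 (chromosome 6, 36676460 to 36687337), was at 378, 429 and 379 ppm, rank 198. It exceeded CDKN1B, encoding p27, 17.1 ± 4.095 times. CDKN2C and CDKN2D, of the INK4 family, were at 19.9 ± 0.743 and 14.5 ± 0.641 ppm, while CDKN2A was at 4.28, 2.23 and 1.23 ppm and CDKN2B was at 0 in libraries 2 and 3.

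The receptors for insulin were of middling rank, below 3 of the IGF binding proteins. INSR (chromosome 19, 7112255 to 7294414) was at 18.4, 11.3 and 15.1 ppm, rank 5961, and IGF1R (chromosome 15, 98648539 to 98964530) at 19.2, 13.5 and 6.12 ppm, rank 6502. INSR was below IGF1R in libraries 1 and 2 and above it in library 3, so their order was not fixed. IGF2R, which clears IGF2 and sorts lysosomal enzymes, was at 43.4, 28.1 and 29.5 ppm, and INSRR, an orphan relative, at 7.53 ± 1.596 ppm.

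The ligands INS and IGF1 were listed at 0, which allows up to 1.13 and 0.682 ppm, while IGF2 was at 8.65, 4.54 and 2.23 ppm. Of the IGF binding proteins 3 were more abundant than INSR and IGF1R in every library: IGFBP2 was at 201, 217 and 204 ppm, IGFBP6 at 68.9, 78.5 and 69.02 ppm and IGFBP4 at 58.6, 44.98 and 33.01 ppm. IGFBP3, IGFBP5 and IGFBP7 were lower, at 8.49 ± 1.63, 6.35 ± 1.25 and 1.53 ± 0.2102 ppm, and IGFBP1, an insulin-repressed gene of liver, was listed at 0 (at most 0.27 ppm). IGFBP2 exceeded INSR 14.5 ± 4.25 times.

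The substrates were unequal. IRS2 (chromosome 13, 109752695 to 109786583) was at 28.7, 16.9 and 12.2 ppm and IRS1 (chromosome 2, 226731312 to 226799820) at 2.49, 1.99 and 1.13 ppm, so IRS2 exceeded IRS1 10.2 ± 1.57 times, by 8.49 to 11.5 times in the single libraries. IRS4 was trace and 0 in library 3. The adaptor gene SHC1, which links receptors to RAS, was the most abundant of 22 (397, 453 and 442 ppm, rank 182), followed by GAB2 (77.5 ± 12.4 ppm) and DOK4 (67.96 ± 9.42 ppm). GRB10, which inhibits the receptor, was at 1.8, 0.124 and 0.0477 ppm, nearly all of it in library 1, and DOK5 and GRB7 were listed at 0. The plot of insulin input genes shows the order and the spread.

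Downstream, PI3-kinase and AKT genes were present in 20 of 23 cases. AKT1 (244, 273 and 229 ppm) exceeded AKT2 (205, 177 and 167 ppm) in every library. BAD, a cell death gene restrained by AKT, led the list at 232, 274 and 282 ppm. The catalytic PI3-kinase genes were low, with PIK3CD at 6.79 ± 0.877, PIK3CA at 4.89 ± 2.22 and PIK3CB at 1.88 ± 0.486 ppm, whereas the regulatory subunit gene PIK3R2 was at 100.5, 84.9 and 69.8 ppm. Among the targets GSK3A (126 ± 17.6 ppm) and FOXO3 (54.7 ± 11.6 ppm) were well above FOXO1 (1.19, 1.62 and 0.699 ppm), and PIK3R5 was listed at 0.

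In the mTOR list 16 of 17 genes were present. The translation repressor gene EIF4EBP1 (222, 254 and 216 ppm) led, followed by TSC2 (153, 111 and 102 ppm) and RPS6KB2 (66.04 ± 6.07 ppm), and the kinase gene MTOR itself was at 40.03, 34.4 and 37.6 ppm. RPTOR (37.4 ± 11.1 ppm) was above RICTOR (3.57 ± 2.34 ppm), the scaffolds of the mTOR complexes 1 and 2, in every library. DEPTOR, an mTOR inhibitor, was trace.

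Of 21 genes that restrain insulin signalling 18 were present. The lipid phosphatase gene INPPL1 (SHIP2) was at 193, 139.9 and 131 ppm, TRIB2 at 131, 96.7 and 77.4 ppm and PPP2R5B at 61.3 ± 12.8 ppm. PTPN1, the phosphatase that acts on the insulin receptor, was at 14.2, 12.1 and 16.5 ppm. TRIB3, a stress-induced AKT binder, was at 37.1, 38.4 and 32.4 ppm, and SOCS3 at 13, 17.6 and 19.1 ppm, higher than SOCS1 at 1.18 ± 0.185 ppm.

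For glucose entry the classical neuronal transporter was almost missing. SLC2A3 (chromosome 12, 7919230 to 7936187) was at 0.684, 1.19 and 0.658 ppm, whereas SLC2A1 (chromosome 1, 42925353 to 42958893) was at 34.9, 37.4 and 41.95 ppm, far above it in every library. SLC2A3 has a near-identical paralogue, SLC2A14, at 0.06198 ± 0.0822 ppm, so reads could have been split between them, but their sum was still under SLC2A1. SLC2A4, the insulin-responsive transporter of muscle and fat, was present at 3.83, 3.19 and 3.81 ppm.

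The most abundant member of the family was SLC2A6 (60.6, 55.8 and 46.3 ppm), with SLC2A8 at 40.3, 35.3 and 33.5 ppm, and both are known as intracellular transporters. SLC2A2, the transporter of liver and beta cells, was listed at 0 (at most 0.283 ppm). In all, 8 of 15 transporter genes were present (53.3%, against 64.4% of protein-coding named long genes).

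Glycolysis was present from end to end. GAPDH (4965, 5251 and 4041 ppm), TPI1 (1264, 1474 and 1313 ppm) and ENO1 (1087, 1138 and 1095 ppm) ranked 6, 52 and 67, and PKM, of the last step, was at 819.7, 855 and 760.5 ppm. The entry enzyme was carried by HK1 (38.2, 29.6 and 25.6 ppm), 8.93 ± 1.16 times HK2 (4.86, 2.92 and 2.91 ppm). HK1 was highest in library 1, as was HK2, and their ranges did not meet.

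Lactate dehydrogenase was mainly of the B form: LDHB was at 91.8, 121 and 90.3 ppm and LDHA at 45.2, 35.1 and 21.7 ppm. The testis gene PGK2 was listed at 0. Of 33 genes 26 were present. The phosphofructokinase genes PFKL, PFKM and PFKP were close together, at 75.6 ± 14.4, 61.4 ± 6.48 and 59.6 ± 2.79 ppm, with overlapping ranges between neighbours.

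Genes of pyruvate entry and the tricarboxylic acid cycle were present in 32 of 34 cases, led by MDH2 (282, 243 and 183 ppm), IDH2 (189.9, 202 and 160.4 ppm) and CS (106, 87 and 88.7 ppm). Of the kinases that shut pyruvate dehydrogenase, PDK2 (61.8, 58.1 and 42.5 ppm) far exceeded PDK1 (2.09 ± 0.511 ppm) and PDK4 (1.305, 0.235 and 0.307 ppm), a fasting gene. PDHA2, of testis, was listed at 0. Mitochondrial pyruvate carrier genes MPC1 and MPC2 were at 6.17 ± 2.595 and 15.7 ± 4.97 ppm.

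Of 17 genes of gluconeogenesis and glycogen, 9 were present (52.9%, against 64.4% of protein-coding named long genes). PCK1 and G6PC1, the insulin-repressed liver enzymes, were trace, at 0.354, 0.142 and 0.0886 and 0.602, 0.0932 and 0.0886 ppm, and FBP2 and GYS2 were listed at 0. Their ubiquitous relatives PCK2 (37.4, 35.2 and 27.5 ppm), G6PC3 (128, 94.4 and 72.04 ppm) and GYS1 (32.2 ± 6.01 ppm) were present, as was PYGB, the brain glycogen phosphorylase (74.5, 79.01 and 73.9 ppm). In the pentose phosphate, polyol and hexosamine routes 15 of 16 genes were present, led by TKT (314, 293 and 274 ppm), PGLS (138 ± 16 ppm) and PGD (85.8 ± 18.97 ppm).

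Sensors of glucose and energy were present in 14 of 18 cases. TXNIP, a gene that rises with glucose through the factors MLXIP and MLXIPL (chromosome 1, 145992435 to 145996579), was at 14.8, 14.3 and 9 ppm, rank 6587. MLXIP (28.4, 24.03 and 16.4 ppm) exceeded MLXIPL (3.23, 1.73 and 1.63 ppm) in every library. STK11, the kinase upstream of AMPK, led the list at 66.03, 78.3 and 68.7 ppm, with the AMPK subunit gene PRKAB1 at 28.7 ± 4.26 ppm and PPARD at 27.3 ± 8.26 ppm. PRKAA1 (7.99 ± 2.66 ppm) stood above PRKAA2 (0.828 ± 0.412 ppm), and PPARGC1A, the driver of mitochondrial biogenesis, was trace, at 0, 0.932 and 0.228 ppm.

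Genes of lipid synthesis were among the more abundant. FASN, fatty acid synthase, was at 715, 509.5 and 425 ppm, rank 134, FADS2 at 499, 477 and 396 ppm and ACADVL, of beta-oxidation, at 396, 400.3 and 365 ppm. SREBF1, the insulin-responsive lipogenic factor, was at 146, 90.8 and 81.9 ppm. CPT1C, the brain form of the CPT1 family, was at 151, 131 and 109.7 ppm, 3.69 ± 0.777 times CPT1A in RNA level. Of 24 fatty acid genes 20 were present, and CD36, LPL and FABP4, of fat and muscle uptake, were trace.

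Of 18 cholesterol genes 17 were present, with a median level of 70.3 ppm, the highest of all lists here other than the reference genes. FDPS, which makes farnesyl diphosphate (174, 200.4 and 151 ppm), and SCAP, which escorts the sterol-sensing factors (141, 117 and 102 ppm), were among the highest. CYP46A1, which removes cholesterol from neurons, was trace at 1.29, 0.918 and 0.409 ppm. The reference genes, all 20 of them present, were led by ACTB (2777 ± 404 ppm), RPLP0 (2641 ± 29.5 ppm) and TUBA1B (2475 ± 139 ppm). The small SD of RPLP0 belongs to the ppm scale, and it was 418 with TMM and 326 without mitochondrial genes in the denominator.

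The 3 libraries agreed in rank. Across 13776 present genes, which are not independent replicates and share their libraries, Spearman's rho between pairs of libraries was 0.955 to 0.967. The coefficient of variation (CV) over the 3 had a median of 21.7%, and 3046 genes (22.1%) differed more than 2-fold between their highest and lowest library. The median CV was 28.7% at 1 to 3 ppm, 14.6% at 30 to 100 ppm and 11.4% at 100 to 300 ppm, against 22.2, 5.28 and 3.23% from counting reads alone. Counting error was thus nearest to the spread for the lowest genes. The comparison is rough, since the counting value is the one expected from mean reads. The CV of 3 libraries is a sample value and also holds the shift described next.

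A part of that spread was a shift common to most genes. Library 1 was highest for 62.1% of present genes and library 3 lowest for 68.6%, while MT-RNR2 was highest in library 3. The median present gene outside the mitochondrial genome had a log2 ratio of library 3 to library 1 of -0.44. Without mitochondrial genes in the denominator it was -0.20, and library 1 was still highest for 50.8% of these genes. With TMM scaling, which sets the typical gene nearly equal by construction, it was 0.04 and library 1 was highest for 31.8%. The median CV was 19.4% without mitochondrial genes and 17.8% with TMM, against 21.7% on the ppm scale. How much of the spread this shift made up was not tested. Statements above on which library is highest or lowest, and the SDs, follow the ppm scale, whereas ratios between genes within a library do not depend on it.

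List medians of this ratio were not tested against each other and are given as a description. Catecholamine synthesis genes had a median log2 ratio of library 3 to library 1 of -0.91 (9 present members) and voltage-gated channels of -0.87 (17 members). Neural progenitor genes had -0.04 (9 members), and cyclin-dependent kinase inhibitors -0.13 (7 members). With TMM scaling these values were -0.43, -0.38, 0.45 and 0.36. The extremes over all lists rested on few genes, with -1.06 for oligodendrocyte and Schwann cell markers (4 members) and 0.68 for microglia and leukocyte markers (2 members), or -0.58 and 1.16 with TMM. Across 12193 present protein-coding genes, the log2 ratio of library 3 to library 1 had a Spearman's rho of 0.215 with transcript GC content and -0.265 with genomic span, given as a description. What part GC content, span or the library itself had in these list medians was not tested.

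At 10 ppm and above, among the most even genes were CTSB, a lysosomal protease (208, 208 and 208 ppm), ERGIC1 (105, 106 and 105 ppm), the thyroid hormone receptor gene THRA (32.99, 33.3 and 33.2 ppm), CKMT1B and ZNF74. This evenness belongs to the ppm scale: with TMM scaling CTSB was at 177, 206 and 247 on that scale, and the CVs of these 5 genes were 16.2 to 17.03%. CKMT1B has a near-identical copy in the genome, so its level is uncertain. Among the least even were MAGI2, a synaptic scaffold (6.88, 21.5 and 4.41 ppm), CDHR2 (28.8, 11.3 and 4.75 ppm), RB1CC1, AP1AR and LINC01697. MAGI2 was highest in library 2, and CDHR2, RB1CC1, AP1AR and LINC01697 in library 1.

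**Figure D4:**
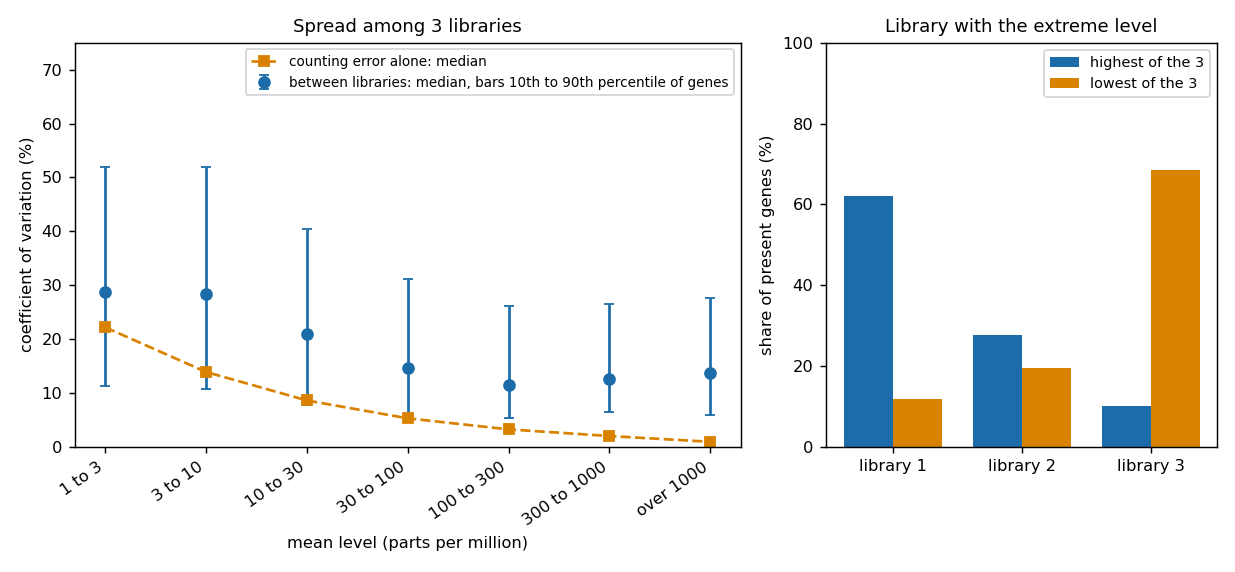
Left, coefficient of variation among 3 libraries by mean level (points, median of genes; bars, 10th to 90th percentile of genes) with the median expected from counting error. Right, share of 13776 present genes for which each library was highest or lowest: library 1 was highest for 62.1% and library 3 lowest for 68.6%.

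Level also followed base composition. Across 12193 present protein-coding genes the mean level had a Spearman's rho of 0.393 with transcript GC content and -0.234 with transcript length. The median level of protein-coding genes was 2.77 ppm for the tenth of genes with the lowest GC (31.4 to 40.3%) and 12.2 ppm for the tenth with the highest (62.3 to 76.8%), of which 57.55 and 72.1% were present. Of the gene pairs set side by side above, some are given here. TH and DBH have a median transcript GC of 65.8 and 61.9%. CDKN1B and CDKN1A have 46.37 and 59.35%, INSR and IGFBP2 54.89 and 60.17%, and HK2 and HK1 51.16 and 51.23%. LDHA and LDHB have 45.4 and 44.01%, SLC2A3 and SLC2A1 46.1 and 56.6%, and IRS1 and IRS2 50.6 and 58.7%. The part of GC content in these levels was not tested.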

How the data were processed

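Total RNA of differentiated, insulin-resistant SH-SY5Y cells (3 IR control libraries) was sequenced in pairs of 100 nt after a stranded total RNA kit, per the labels' protocols. Kallisto 0.46.1, FastQC, edgeR and build GRCh38.p13 appear in the submitters' processing notes without role or order. The authors deposited per gene an estimated count and a scaled signal. In each library that deposited signal equals the estimated count multiplied by a constant, and it was not used further. The estimated counts were used as deposited and not rounded, since no count test was run.

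Estimated counts summed to 22738203, 25328857 and 32209583, of which named long genes held 8.90 to 9.11%. For low genes with 1 GENCODE 29 transcript of 500 to 1500 nt, values times effective length gave whole reads (within 0.05) in 68.4 to 70.3% of cases at a fitted fragment length of 160 nt and a fitted scale, against 15.1 to 15.9% without length. Those fits favour whole numbers. Reads per gene used the median transcript length and are approximate. Protein-coding genes rested on about 4463165 to 5373217 reads per library. Floors are 3 reads and cover counting error only.

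Levels, CVs and ranks were computed in Python 3.11.15 and TMM factors with edgeR 4.0.16. No test was run, because there is a single group. Of 756 entries in 40 lists, 754 matched. Named were the 15 most abundant genes, the 3 highest and up to 6 zero members of each list, 19 fixed genes, and the 6 most and 6 least variable genes at 10 ppm or more. Some genes under this rule are not reported here. Other list members were named after their values were seen. The members and lists were chosen with earlier results of these data known. No source says whether each library had its own culture, so SDs may be technical. Alternatives were other denominators, TMM, thresholds of 0.5 and 5 ppm, a mean rule, read floors and leaving out each library. The level fit was tested on simulated data.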

Additional observations from a re-analysis of the deposited data

How the results depend on the processing

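No paired analysis was possible because a single group is described and no result comes from a test. The number of named long genes present was 13776 and fell to 9032 at a threshold of 5 ppm, and it stayed within 1.5 times under the other alternatives, including the 3 read floor. At 5 ppm the members present were 9 voltage-gated channels, 5 of gluconeogenesis and glycogen, 2 of GABA, glycine and serotonin, 1 of oligodendrocytes and Schwann cells, 1 of endothelium and fibroblasts, and 0 of the astrocyte, leukocyte and liver lists. At 0.5 ppm 7 GABA, glycine and serotonin genes were present. The midbrain dopaminergic list went from 0 to 1 (CORIN) at 0.5 ppm, without mitochondrial genes in the denominator, by the mean of the 3 libraries and without replicate 2 (range 0 to 1 when each replicate was left out). The 10 most abundant genes held 9.99% of the total without mitochondrial genes and 81.4% among named genes of any span, where mitochondrial genes held 5.14%. The median CV was 19.4% without mitochondrial genes, 17.8% with TMM, 16.9% at 10 ppm or more, 27.7% for all genes above 0, and 15.1 to 23.3% when each replicate was left out. Of 155 levels of genes named by the rule, 146 moved by more than 1 SD without mitochondrial genes in the denominator, since all then rise by 1.51 to 1.78 times, and 6 moved with TMM. Leaving out 1 of 3 replicates cannot move a mean by 1 SD, so moves of over 1.5 times were counted instead, a rule chosen after seeing the data. There were 6 without replicate 1 (CDHR2 8.05, ERBB3 2.18, AP1AR 6.83, RB1CC1 7.74 and LINC01697 5.65 ppm, and SLC18A2 at 0), 3 without replicate 2 (CHAT 2.38 and MAGI2 5.64 ppm among them) and 0 without replicate 3. Depth limits genes under about 0.6 ppm.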
